A study of Mus musculus with 4 samples.

Results

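The 9 genes described here encode growth factors and receptors that act on blood vessels: Pdgfa, Pdgfb, Igf1, Vegfb, Ang, Hbegf, Flt1, Nrp1 and Nrp2. They were chosen by name, with earlier results of these data known. Counts of called members beside the shares over all genes are therefore a description and not a test. All probe sets that carried 1 of these gene symbols and no other were taken, which gave 26 of the 45101 probe sets on the array and 9 of 18194 genes. Cells of RAW264.7, an established line of mouse macrophages, were kept for 4 days in normoxia without IL6 (NC), in normoxia with IL6 (NC+IL6), in hypoxia without IL6 (HC) or in hypoxia with IL6 (HC+IL6), in serum-containing medium. Hypoxia was 1% oxygen, the sources used here do not state how much oxygen the normoxia cultures had, and the dose of IL6, a cytokine whose receptor activates STAT3 and MAPK cascades, was 25 ng/ml. Total RNA of each condition was hybridized to 1 Affymetrix mouse expression array, so all values come from 1 line and no comparison has a replicate. The study asked whether hypoxia shifts IL6-treated macrophages toward a state that favors metastasis and vessel formation.

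Vessels grow when endothelial cells respond to secreted ligands, of which VEGF family members bind the receptor tyrosine kinases Flt1 and Kdr together with the neuropilins Nrp1 and Nrp2, their co-receptors. Platelet-derived growth factors, which act as dimers of A or B chains, recruit pericytes and smooth muscle cells, insulin-like growth factor 1 supports growth and survival of many cell types, and angiogenin is a secreted ribonuclease that induces vessels. Macrophages are a known source of several of these ligands in tumors and wounds, and hypoxia is a known trigger for some of them.

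Levels are given as log2 MAS5 signals, in which the short probes of a probe set are combined after subtraction of local background, scaled to a trimmed mean signal of 500 per array. To separate signal from background, each array was given a floor, the 95th percentile over 95 probe sets, which belong to 59 genes typical of other tissues. This floor was 6.70 for NC, 6.31 for NC+IL6, 6.77 for HC and 6.78 for HC+IL6 on the log2 scale, and 37.8% to 40.7% of all probe sets exceeded it. Calls of higher or lower needed a ratio of at least 2-fold, which is a log2 ratio of 1, and at least 1 of both arrays above its floor. If the other array was under its floor, that floor took the place of its signal, and the fold is written as a minimum. Where a gene had more than 1 probe set, the brightest stands for it, and for members the others are described beside it. Between probe sets of the same gene, the log2 ratio had a pooled SD of 0.35 for both hypoxia comparisons and of 0.29 and 0.31 for IL6 in normoxia and in hypoxia. It describes how far probe sets of a gene differ, not how far cultures or arrays differ, and with 1 array per condition no p-value is given. All 11 macrophage markers, among them Csf1r and Cd68, were above the floor on every array. Among them Itgam was 3.13-fold and 3.24-fold higher in hypoxia without and with IL6, and Fcgr1 3.31-fold and 2.37-fold higher with IL6 in normoxia and in hypoxia. Of 12 endothelial markers, only Egfl7 exceeded it on any array, and Cdh5, Pecam1, Tek and Kdr did not. The summed signal of the endothelial list was between 382 and 547, against 157674 to 166159 for the macrophage list. Of 10 fibroblast and mural cell markers, Acta2 was above the floor on both IL6 arrays and Cspg4 in NC+IL6, and the list summed to between 314 and 463. Acta2 was called higher with IL6 in normoxia, at least 2.19-fold, as Flt1 was, and its part in that result was not tested.

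Of the 9 members, 8 were above the floor on at least 1 array and 7 on all 4. Flt1 was under it in NC, and Hbegf was under it on all arrays. In HC compared with NC, 2 of the 8 members above the floor, Pdgfa and Igf1, were called higher and 0 were called lower. Among all 9379 genes above the floor in this comparison, 3.72% were called higher and 1.07% lower. In HC+IL6 compared with NC+IL6, Pdgfa, Ang and Flt1 were called higher and 0 members were called lower, where 3.31% of 9714 genes were higher and 1.40% lower. The arrays measured RNA of whole cultures, in which a higher level per cell and more cells with the transcript cannot be told apart. The share of higher calls among all calls depended on the scaling. Higher genes made up 77.7% of the calls without IL6 and 70.3% with IL6, and 57.2% and 52.3% after quantile normalization.

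**Figure D1:**
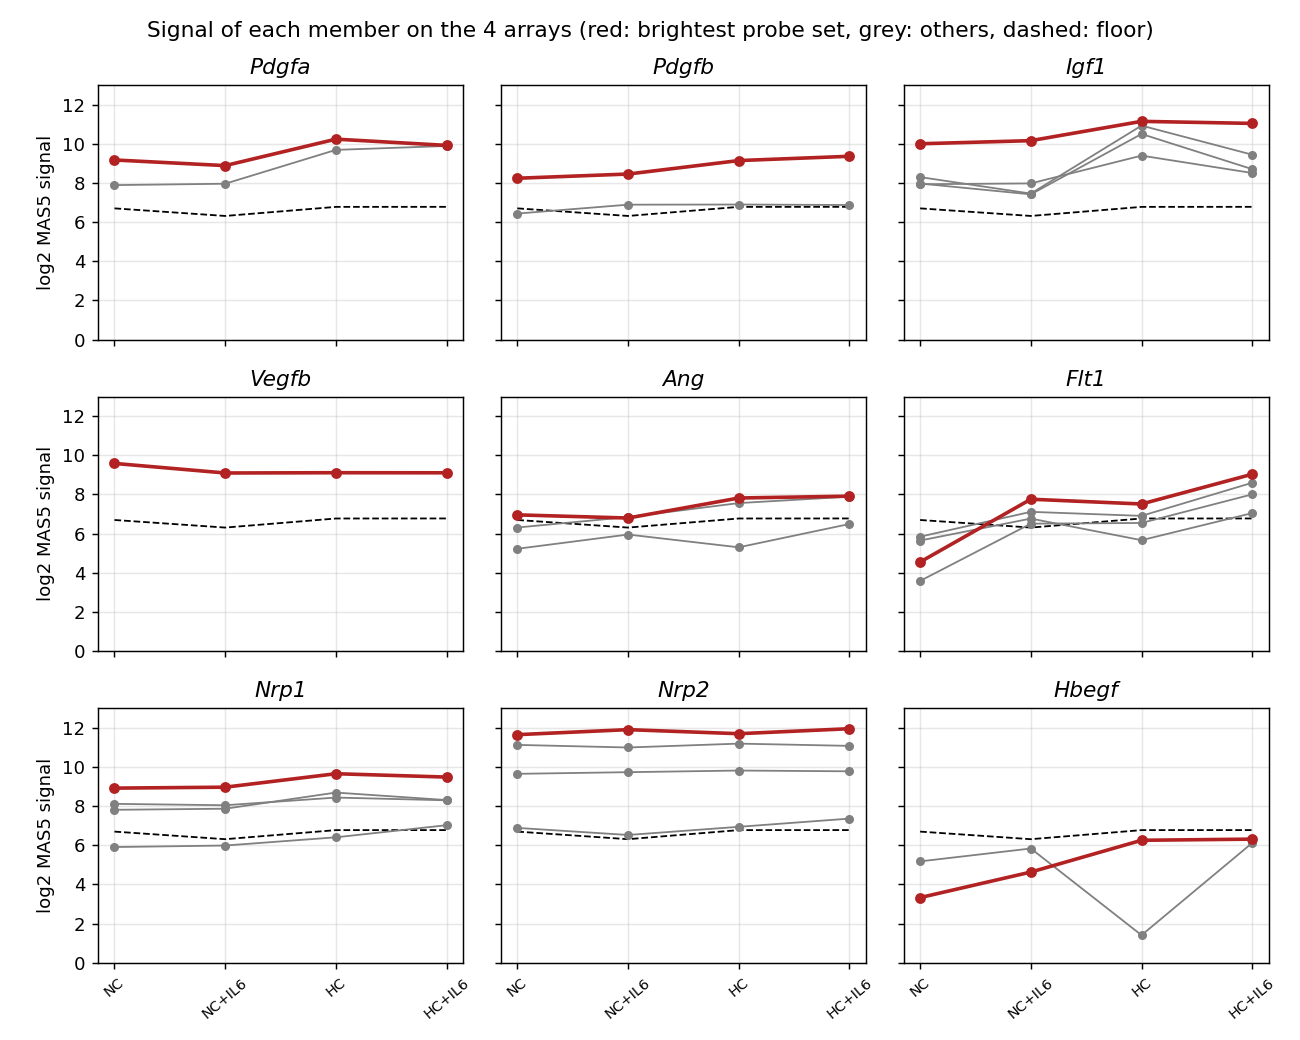
Log2 MAS5 signal (vertical axis) of every probe set of the 9 members on the 4 arrays (horizontal axis), with the brightest probe set of each gene in red, the others in grey and the background floors dashed; lines join the values of 1 probe set. Pdgfa, Pdgfb, Igf1, Ang and Nrp1 lie higher on both hypoxia arrays in their brightest probe set, Flt1 is highest in HC+IL6, Nrp2 stays between 11.65 and 11.95 and Hbegf lies under the floor.

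Igf1, a ligand for the IGF1 receptor that macrophages secrete, had the largest log2 ratio of the secreted members for hypoxia without IL6. In its brightest probe set, 1452014_a_at, the log2 signal was 10.00 in NC and 10.16 in NC+IL6 against 11.14 in HC and 11.04 in HC+IL6. Both hypoxia arrays lay above both normoxia arrays, 2.21-fold without IL6 and 1.84-fold with IL6, and the second of these was not called. IL6 made a difference of 0.16 in normoxia and -0.11 in hypoxia, and neither was called. The other 3 probe sets differed more between the arrays. Probe set 1437401_at had log2 signals of 8.30 and 7.45 in NC and NC+IL6, and 10.92 and 9.44 in HC and HC+IL6, which is 6.18-fold and 3.96-fold higher in hypoxia. Probe set 1434413_at had log2 signals of 7.97, 7.41, 10.50 and 8.70 in the same order, with folds of 5.78 and 2.44. Probe set 1419519_at had log2 signals of 7.93, 7.97, 9.39 and 8.50, with folds of 2.75 and 1.44. All 4 probe sets were higher in hypoxia with and without IL6, and in each of them HC was the highest array. They differed over IL6 in hypoxia, where 1434413_at was 3.47-fold lower and 1437401_at 2.80-fold lower in HC+IL6 than in HC, 1419519_at was 1.85-fold lower, and 1452014_a_at had a ratio of 1.08-fold. With the 4 probe sets averaged, the log2 ratio was 1.94 for hypoxia without IL6, 1.17 with IL6, -0.30 for IL6 in normoxia and -1.07 for IL6 in hypoxia, so that Igf1 then counted as called in both hypoxia comparisons and as lower with IL6 in hypoxia. Probe set names ending in a_at mark probes shared by several transcripts of a gene, and which Igf1 transcripts each probe set detects was not tested.

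Pdgfa, the A chain of platelet-derived growth factor, was called higher in hypoxia both without and with IL6. Its brighter probe set had log2 signals of 9.17 in NC and 8.88 in NC+IL6 against 10.23 in HC and 9.91 in HC+IL6, and was 2.09-fold and 2.04-fold higher in hypoxia. Its other probe set had log2 signals of 7.89, 7.96, 9.68 and 9.88, and was 3.48-fold and 3.80-fold higher. Each hypoxia array was above each normoxia array in both probe sets, and the log2 ratios for IL6 lay between -0.32 and 0.20. The brighter probe set lay close to the limit, with log2 ratios of 0.98 without and 0.97 with IL6 after quantile normalization as well as after cyclic loess, where it was no longer called.

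Pdgfb, the B chain, which endothelial cells use to recruit pericytes, differed by somewhat less than the limit. Its signals on the log2 scale were 8.24 and 8.45 in NC and NC+IL6, and 9.14 and 9.36 in HC and HC+IL6, which gives 1.87-fold in both hypoxia comparisons. The signals followed the order NC, NC+IL6, HC, HC+IL6, and HC+IL6 was 2.17-fold above NC. IL6 made differences of 0.21 in normoxia and 0.22 in hypoxia, and neither was called. The second Pdgfb probe set lay near the floor, at 6.43, 6.89, 6.89 and 6.87, and had a log2 ratio of -0.02 for hypoxia with IL6. The receptors of both chains, Pdgfra and Pdgfrb, and the other ligands Pdgfc and Pdgfd were under the floor on all 4 arrays.

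Ang, which encodes angiogenin, had log2 signals of 6.96 in NC and 6.80 in NC+IL6 against 7.82 in HC and 7.92 in HC+IL6 in its brightest probe set. The hypoxia arrays were 1.82-fold and 2.17-fold above the normoxia arrays, which themselves lay just above the floor. The second of these was called. A further probe set, 1438937_x_at, had log2 signals of 6.31, 6.85, 7.56 and 7.89, and was at least 1.82-fold higher in hypoxia without IL6 and 2.06-fold higher with IL6. The suffix x_at marks probes that can also bind related transcripts. A last Ang probe set was under the floor on all arrays. After quantile normalization the log2 ratio with IL6 was 0.86, after cyclic loess 0.87 and with averaged probe sets 0.90, so that Ang was no longer called. Rnase4, a ribonuclease gene that overlaps Ang on chromosome 14 in the RefSeq annotation of GRCm38.p6, had log2 signals of 12.19 and 12.38 in NC and NC+IL6, and 13.56 and 13.62 in HC and HC+IL6. It was 2.59-fold and 2.36-fold higher in hypoxia, and IL6 made differences of 0.19 and 0.06.

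Vegfb, a VEGF family ligand that binds Flt1, did not follow this pattern. Its single probe set had log2 signals of 9.59 in NC and 9.10 in NC+IL6 against 9.11 in HC and 9.11 in HC+IL6. NC stood above the other 3 arrays, by 1.39-fold against HC and 1.40-fold against NC+IL6, and the hypoxia difference was 0.01 with IL6. None of these reached 2-fold. Hbegf, a ligand of the EGF receptor that is shed from the cell surface, had log2 signals of 3.33 and 4.63 in NC and NC+IL6, and 6.26 and 6.31 in HC and HC+IL6 in one probe set and 5.18, 5.84, 1.41 and 6.12 in the other. The probe sets disagreed over HC, all of these values lay under the floor, and no fold is given. With the Mbp probe sets left out of the background list, the floor in HC+IL6 was 6.08 and Hbegf was above it on that array.

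Among the receptors, Flt1 stood apart in that its signal was higher with hypoxia and with IL6. Flt1 encodes VEGF receptor 1, which monocytes and macrophages carry and which binds Vegfa, Vegfb and Pgf. Its brightest probe set, 1451756_at, had log2 signals of 4.55 in NC and 7.76 in NC+IL6 against 7.51 in HC and 9.04 in HC+IL6. NC alone was under the floor, HC and NC+IL6 were above it, and HC+IL6 was highest. HC+IL6 was 2.42-fold above NC+IL6 and 2.87-fold above HC. Against NC, the signal was at least 2.09-fold higher in NC+IL6, at least 1.76-fold higher in HC, which was not called, and at least 5.05-fold higher in HC+IL6. With the probe sets of Mbp, a myelin gene, left out of the background list, the floor in NC was 6.39 and the log2 ratio of HC over NC at least 1.13, which was then called. Flt1 was the only member called for IL6, 1 of 8 above the floor in normoxia and 1 of 8 in hypoxia. Among all genes above the floor, 3.40% were higher and 1.23% lower with IL6 in normoxia, and 2.44% and 1.87% in hypoxia. These comparisons share arrays with the hypoxia comparisons. The other Flt1 probe sets had the same highest array. Probe set 1419300_at had log2 signals of 5.85 and 7.11 in NC and NC+IL6, and 6.91 and 8.60 in HC and HC+IL6, and 1440926_at had log2 signals of 3.59, 6.51, 6.55 and 8.01. Both were called higher in HC+IL6 against NC+IL6, 2.80-fold and 2.82-fold. The last, 1454037_a_at, had log2 signals of 5.65, 6.77, 5.67 and 7.05, under the floor on both arrays without IL6, and a hypoxia log2 ratio of 0.28 with IL6. In NC all 4 probe sets were under the floor, and with a floor of 6.78 on every array the call for IL6 in normoxia was lost. Without a floor the log2 ratio of 1451756_at was 2.96 for hypoxia and 3.21 for IL6 in normoxia, both against a signal that cannot be told apart from background.

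Nrp1, a co-receptor for VEGF and semaphorins, had log2 signals of 8.92 in NC and 8.97 in NC+IL6 against 9.65 in HC and 9.48 in HC+IL6 in its brightest probe set. Both hypoxia arrays were above both normoxia arrays, 1.66-fold without and 1.43-fold with IL6, and neither difference was called. The other probe sets above the floor on all arrays had hypoxia log2 ratios between 0.25 and 0.88. The last was above the floor in HC+IL6 alone and gave a log2 ratio of at least 0.72 with IL6. Nrp2, the related co-receptor that also serves lymphatic vessels, had log2 signals of 11.65 and 11.90 in NC and NC+IL6, and 11.70 and 11.95 in HC and HC+IL6. Its hypoxia log2 ratio was 0.05 with and without IL6. IL6 made a difference of 0.26 in normoxia and 0.25 in hypoxia, and neither was called. Among the other Nrp2 probe sets, the only hypoxia log2 ratio above 0.17 was 0.84, with IL6, in a probe set that lay close to the floor.

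**Figure D2:**
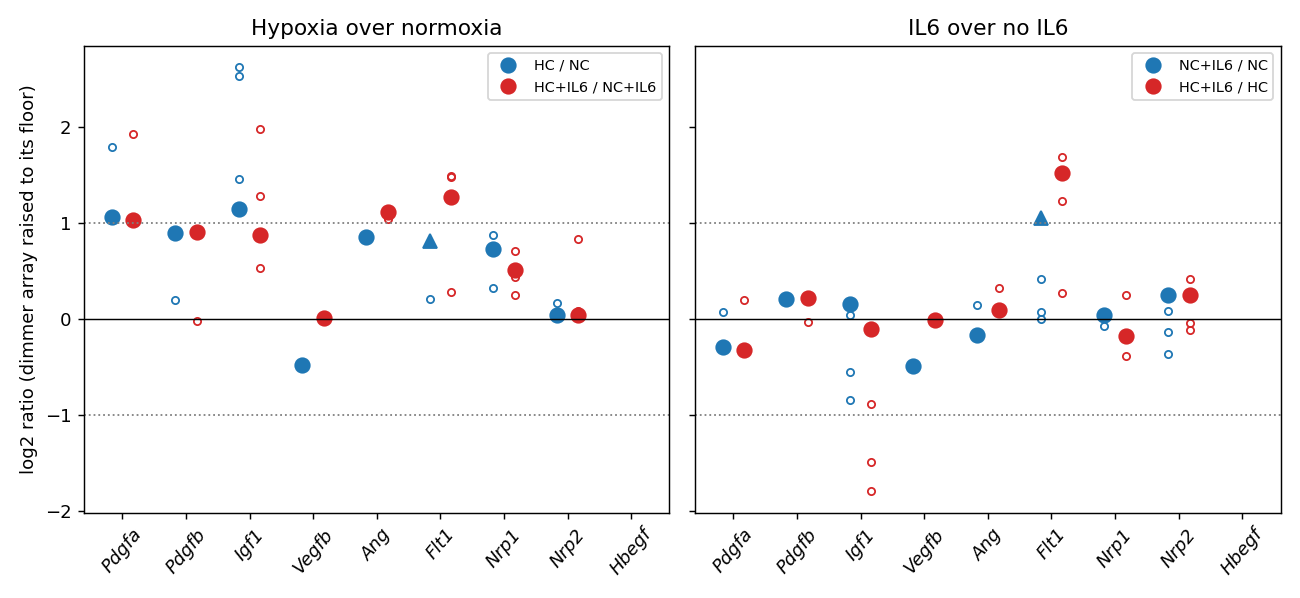
Log2 ratios of the members for hypoxia over normoxia (left) and for IL6 over no IL6 (right). Large symbols are the brightest probe set, triangles are lower bounds against the floor, small circles are other probe sets above the floor, also with the dimmer array raised to its floor, and dotted lines mark 2-fold. The large symbols of Pdgfa, Pdgfb, Igf1, Ang, Flt1 and Nrp1 lie above 0 in both hypoxia comparisons, and that of Nrp2 lies at 0.05. The other Pdgfb probe set lies at -0.02 with IL6. For IL6 Flt1 alone reaches 2-fold among the large symbols, while 2 other probe sets of Igf1 lie below -1 in hypoxia.

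Over single probe sets, 6 of 26 were called higher in HC against NC and 9 of 26 in HC+IL6 against NC+IL6, and 0 were called lower in either. Of the 26, 20 were above the floor in the first comparison and 23 in the second. Among all probe sets above the floor in the same comparisons, 4.21% and 4.92% were higher and 1.02% and 1.25% lower. The 6 belong to Pdgfa and Igf1, and the 9 to Pdgfa, Igf1, Ang and Flt1. For IL6 in normoxia, 1 of the 22 above the floor was higher, a probe set of Flt1, where 2.85% of all probe sets above the floor were higher. For IL6 in hypoxia, 3 of the 23 above the floor were higher, all of Flt1, and 2 were lower, both of Igf1, where 2.23% of all probe sets above it were called higher and 1.84% called lower. Probe sets of 1 gene measure the same RNA and are not independent. In HC+IL6 compared with NC, Pdgfb, Igf1 and Flt1 were called, where 5.58% of the 9472 genes above the floor were higher and 1.72% lower. The log2 ratios of these calls were 1.12, 1.04 and at least 2.34, while Pdgfa had 0.74 and Ang 0.96. With probe sets averaged, Pdgfb had 0.78, Igf1 0.87 and Pdgfa 1.37, so that Pdgfb and Igf1 were no longer called and Pdgfa was.

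The sequence before the annotated start of the members that were called is shown because HIF, the transcription factor stabilized in hypoxia, binds a short core, ACGTG or GCGTG. RefSeq promoter sequences of GRCm38.p6 were matched for 7 of the 9 members, with 8 start sites, all but Pdgfb and Hbegf. The core was searched on both strands in the 250 bases before each start, and capitals mark it, with CACGC or CACGT for a match on the other strand. Pdgfa has 2 start sites, at chr5:138994945-138995194 and chr5:138994282-138994531, both on the minus strand. Igf1 is shown from chr10:87860861-87861110 on the plus strand, Ang from chr14:51090827-51091076 on the plus strand and Flt1 from chr5:147726012-147726261 on the minus strand. Vegfb, which was not called higher in hypoxia, is added from chr19:6987652-6987901 on the minus strand.
Pdgfa, first start: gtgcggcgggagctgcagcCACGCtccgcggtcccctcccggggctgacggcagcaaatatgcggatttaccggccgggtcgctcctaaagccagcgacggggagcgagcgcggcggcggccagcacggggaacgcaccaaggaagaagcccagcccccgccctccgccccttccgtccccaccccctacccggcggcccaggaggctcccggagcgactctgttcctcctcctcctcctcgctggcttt
Pdgfa, second start: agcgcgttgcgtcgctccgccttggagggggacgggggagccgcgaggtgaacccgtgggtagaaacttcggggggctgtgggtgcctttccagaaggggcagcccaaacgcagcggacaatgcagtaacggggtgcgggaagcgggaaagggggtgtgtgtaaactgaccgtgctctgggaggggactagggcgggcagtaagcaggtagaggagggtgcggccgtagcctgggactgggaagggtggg
Igf1: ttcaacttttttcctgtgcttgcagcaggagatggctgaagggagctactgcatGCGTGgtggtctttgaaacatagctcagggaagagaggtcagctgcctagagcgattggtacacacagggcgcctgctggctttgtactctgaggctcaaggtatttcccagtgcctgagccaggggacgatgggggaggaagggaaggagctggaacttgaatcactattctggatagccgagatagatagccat
Ang: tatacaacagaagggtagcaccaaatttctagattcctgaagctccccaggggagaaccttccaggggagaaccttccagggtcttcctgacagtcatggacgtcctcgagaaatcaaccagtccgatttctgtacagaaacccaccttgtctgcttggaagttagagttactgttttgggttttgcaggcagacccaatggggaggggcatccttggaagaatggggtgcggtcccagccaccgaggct
Flt1: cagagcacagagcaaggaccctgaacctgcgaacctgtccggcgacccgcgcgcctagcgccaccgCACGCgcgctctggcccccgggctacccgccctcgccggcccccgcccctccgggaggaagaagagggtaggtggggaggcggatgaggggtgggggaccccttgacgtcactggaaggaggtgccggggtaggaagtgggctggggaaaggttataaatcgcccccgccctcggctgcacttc
Vegfb: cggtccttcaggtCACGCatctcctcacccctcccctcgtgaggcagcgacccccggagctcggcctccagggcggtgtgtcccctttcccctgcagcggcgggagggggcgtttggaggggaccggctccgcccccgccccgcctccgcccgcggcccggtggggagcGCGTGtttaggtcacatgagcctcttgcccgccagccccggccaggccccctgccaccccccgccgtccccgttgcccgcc
The first bases of the matches lie 231 bases before the start in Pdgfa, 196 in Igf1, 184 in Flt1, and 237 and 81 in Vegfb. The other start of Pdgfa and that of Ang held 0 matches in this window. Of the 8 start sites of members 6 held a match, among them those of Nrp1 and Nrp2, and of all 32851 start sites in the same RefSeq collection 38.6% did. Member windows had 52.4% to 76.4% G and C, and the 38.6% was not matched for this. Vegfb and Nrp2, with 2 matches each, were not called higher in hypoxia, and a link between matches and ratios was not tested. The STAT core TTCNNNGAA, which reads the same on both strands, was found in 0 of the 8 windows, Flt1 included, and in 7.02% of all. A match describes the letters in the window and not a site in use.

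Other genes of the same pathways were taken from lists of 90 genes, of which 86 were measured here and 38 were above the floor on at least 1 array. These lists, too, were chosen with earlier results of these data known. In HC compared with NC, 6 of 31 above the floor were called higher and 0 lower. Among all genes above the floor, 3.72% were higher and 1.07% lower. The median log2 ratio was 0.25 against 0.05 for all genes above the floor. In HC+IL6 compared with NC+IL6, 5 of 37 were higher and 1 was lower, with medians of 0.31 and 0.01. The shares over all genes above the floor were 3.31% higher and 1.40% lower. Vegfa, the main ligand of vessel growth, had log2 signals of 7.28 in NC and 9.01 in NC+IL6 against 8.74 in HC and 9.41 in HC+IL6. NC was again the lowest array and HC+IL6 the highest, as for Flt1. Vegfa was 2.74-fold higher with hypoxia and 3.33-fold higher with IL6, both against NC, and the hypoxia log2 ratio with IL6 present was 0.39. A second Vegfa probe set had log2 signals of 5.96, 7.62, 7.19 and 7.97, with NC under the floor. Pgf, placental growth factor, was above the floor in HC+IL6 alone, at 7.06, with 5.83, 3.11 and 5.30 in NC, NC+IL6 and HC. The second VEGF receptor, Kdr, was under the floor on all arrays. Plxnd1, a semaphorin receptor that restrains vessel sprouting, had log2 signals of 8.67 and 7.02 in NC and NC+IL6, and 10.11 and 9.0 in HC and HC+IL6. It was 2.72-fold and 3.94-fold higher in hypoxia and 3.14-fold and 2.16-fold lower with IL6. Hypoxia and IL6 thus went in opposite directions, unlike for Flt1.

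For the other ligands, receptors and binding proteins were examined in the same way. Igf1r, the IGF1 receptor, was under the floor on all arrays in every probe set. Insr, the insulin receptor, had log2 signals of 7.27 in NC and 7.46 in NC+IL6 against 8.69 in HC and 8.58 in HC+IL6. It was 2.69-fold and 2.19-fold higher in hypoxia in this probe set, while its others, 1421380_at and 1450225_at, were under the floor on all arrays. Igfbp4, which binds IGF1 outside the cell, had hypoxia log2 ratios of 0.82 and 0.95 in its brightest probe set, which was not called. Of its other 4 probe sets above the floor, 1437406_x_at had 1.39 and 1.49, and 1421992_a_at had 0.53 and 1.04. Probe set 1423756_s_at had 0.95 and 0.76, and 1423757_x_at had 0.39 and 0.78. Egfr, the receptor of Hbegf, had log2 signals of 7.32, 6.58, 7.38 and 7.35 on NC, NC+IL6, HC and HC+IL6 in its brightest probe set. Of its other probe sets, 1432647_at was above the floor on 2 arrays and the rest were under it on all arrays. In hypoxia, 0 genes of the EGF list were called, of 8 above the floor without IL6 and 7 with IL6. The shares over all genes above the floor were 3.72% higher and 1.07% lower without IL6, and 3.31% and 1.40% with IL6. Rhbdf2, a partner of the protease that sheds Hbegf, was 2.39-fold higher with IL6 in normoxia and 2.13-fold in hypoxia. Plxnb2, a receptor for angiogenin, and Rnh1, its inhibitor, had hypoxia log2 ratios between -0.57 and 0.30. Adm, which encodes the vasodilator adrenomedullin, had log2 signals of 6.80 and 8.93 in NC and NC+IL6, and 8.84 and 10.65 in HC and HC+IL6. It was 4.12-fold and 3.30-fold higher in hypoxia and 4.38-fold and 3.51-fold higher with IL6. As for Flt1, NC was the lowest array and HC+IL6 the highest. The other Adm probe set had log2 signals of 6.37, 8.36, 8.49 and 10.27 in NC, NC+IL6, HC and HC+IL6, with NC under the floor. Angptl4, a regulator of lipoprotein lipase, was 2.30-fold lower with IL6 in hypoxia and had a hypoxia log2 ratio of 0.01 without IL6. Among inhibitors of vessel growth, Serpinf1 (pigment epithelium-derived factor) was 2.56-fold and 3.11-fold higher in hypoxia. Cxcl10, an angiostatic chemokine, had log2 signals of 8.70 in NC and 11.04 in NC+IL6 against 8.01 in HC and 8.23 in HC+IL6, and was 7.01-fold lower in hypoxia with IL6.

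**Figure D3:**
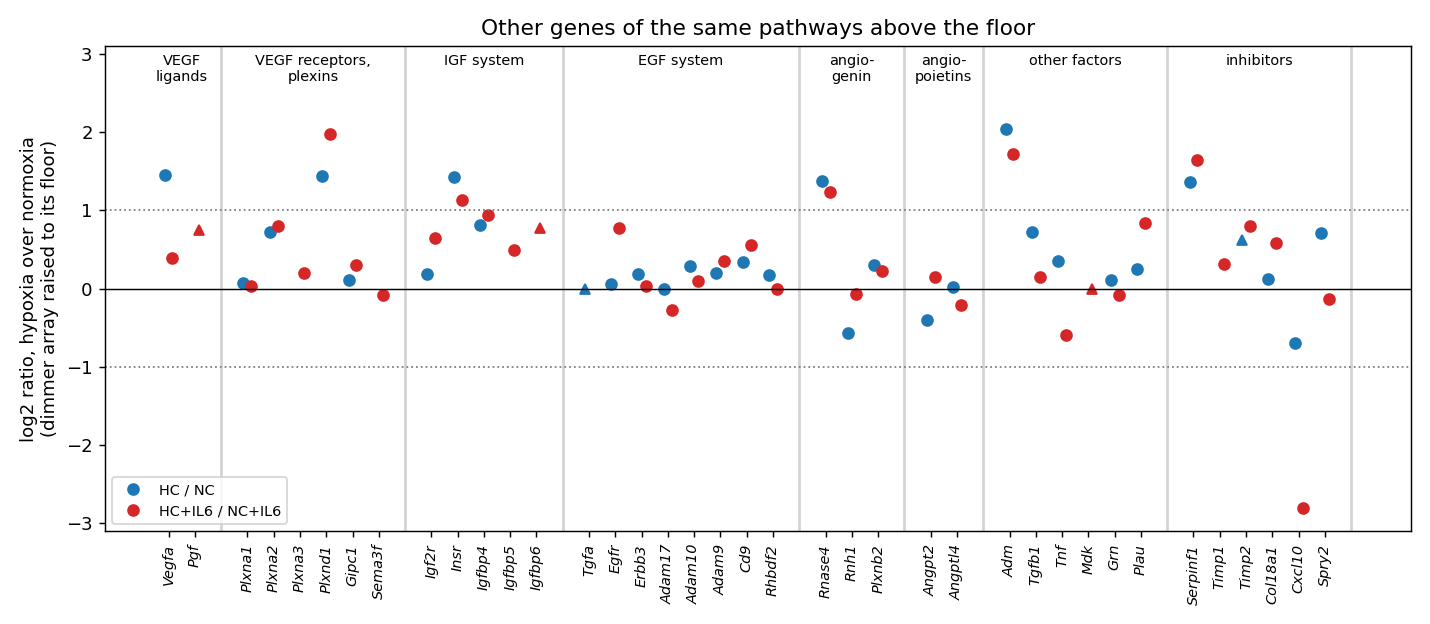
Log2 ratio of hypoxia over normoxia for the other genes of the pathway lists that were above the floor, without IL6 in blue and with IL6 in red, with triangles for bounds against the floor and dotted lines at 2-fold. Vegfa, Plxnd1, Insr, Rnase4, Adm and Serpinf1 lie above 1 without IL6, and Cxcl10 lies at -2.81 with IL6.

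The genes whose signals over the 4 arrays were most like those of the 3 members with the widest range were found by the distance between centered log2 signals, with values under the floor raised to it, over 9891 genes above the floor on at least 1 array. For Flt1, whose NC value entered as the floor of 6.70, Jag1, a ligand of Notch receptors, was closest at a distance of 0.08, with 7.86 and 8.99 in NC and NC+IL6, and 8.75 and 10.18 in HC and HC+IL6. Next to Flt1 came 1700003F12Rik at 0.26 and Hebp1 at 0.27. For Pdgfa, Rc3h2 was closest at 0.07, and Kmt2c, a histone methyltransferase, followed at 0.09 and Tbc1d22b at 0.10. For Igf1, Syne1, which encodes a nuclear envelope protein, was closest at 0.07, before Etfrf1 at 0.11 and Hip1 at 0.13. These matches are to its brightest probe set alone, with a log2 ratio of -0.11 for IL6 in hypoxia. The other Igf1 probe sets had -0.89, -1.80 and -1.48 there, so their pattern differed. With 4 values per gene and this many genes, close matches arise easily, and they are given as a description.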

How the data were processed

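RNA of RAW264.7 macrophages from 4 conditions was measured on 1 Affymetrix array per condition. The authors deposited log2 signals of 45101 probe sets, summarized with MAS5 per the labels, in a version not given in the sources used here. Signals of 1 or less are listed at 0, and every array had a mean of 500 once 2% of its signals were trimmed from either end. Detection calls were not used here, the low signals of dim genes vary widely in MAS5, and precision is limited by the number of arrays.

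The methods name a smaller array of the same family than the one these 45101 probe sets belong to, and the table was used as deposited. Gene symbols, matched by probe set ID, came from a platform annotation of 35890 probe sets, of which 34958 carry 1 symbol and 932 several, while 9211 further probe sets are unnamed here. Gene numbers of 34754 were matched to RefSeq (GRCm38.p6), and 0 symbols changed. For each of 18194 genes, the brightest probe set by mean over the arrays was used. Of 70 listed background genes 59 were in the table. Scaling alternatives were computed with limma 3.58.1 (R 4.3.3), and everything else in Python 3.11.15 with pandas 2.3.3, numpy 2.4.6, scipy 1.17.1 and, for figures, matplotlib 3.10.9. No test across arrays was run, since each condition has 1 array. Named genes are all members, up to 4 called genes of each pathway list, receptors and ligands that pair with members, and the 3 closest genes in pattern for 3 members. The members and lists were chosen with earlier results of these data known. Alternatives were quantile normalization, cyclic loess, other floors, averaged probe sets and a limit of 1.5-fold. A floor without Mbp probe sets and the highest floor on every array were chosen after seeing the data.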

Additional observations from a re-analysis of the deposited data

How the results depend on the processing

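In HC compared with NC, 2 members were called. The count was 1 after quantile normalization (Igf1), 1 after cyclic loess, 4 with no floor and 4 with a floor at the background median. It was 1 with a floor at the 99th percentile, 6 at 1.5-fold and 3, with Flt1 added, with a floor without Mbp. The higher calls over all genes moved too, from 349 of 9379 to 239 of 9377 after quantile normalization and 253 of 9359 after cyclic loess. They were 2862 of 18194 with no floor, 1724 of 15859 with the median floor and 94 of 5862 with the 99th percentile. At 1.5-fold they were 1203 of 9379, and without Mbp 385 of 10044. In HC+IL6 compared with NC+IL6, 3 were called, and the count was 1 after quantile normalization (Flt1), 1 after cyclic loess, 1 with the 99th percentile and 5 at 1.5-fold. With averaged probe sets it was 3, with Igf1 in place of Ang. Over all genes in this comparison, 322 of 9714 were higher, 206 of 9710 after quantile normalization and 213 of 9670 after cyclic loess. With the 99th percentile 103 of 6548 were higher, at 1.5-fold 1173 of 9714 and with averaged probe sets 326 of 8707. For IL6 in normoxia, the 1 call became 2 with no floor and 0 with the 99th percentile, with averaged probe sets and with the highest floor on every array. Higher calls over all genes were 327 of 9621, and became 2418 of 18194 with no floor and 120 of 6392 with the 99th percentile. They were 275 of 8645 with averaged probe sets and 322 of 9199 with the highest floor. For IL6 in hypoxia, the 1 call became 0 with the 99th percentile and 2, with Igf1 lower, with averaged probe sets. Over all 9503 genes above the floor, 232 were higher and 178 lower. These became 85 and 76 of 6175 with the 99th percentile, and 209 and 179 of 8486 with averaged probe sets. In HC+IL6 compared with NC, the 3 calls became 1 with the 99th percentile, 5 at 1.5-fold and 2, Pdgfa and Flt1, with averaged probe sets. Higher calls over all genes were 529 of 9472, and became 176 of 6140, 1372 of 9472 and 442 of 8431 in the same order. The 99th percentile floor was between 8.81 and 9.40, and the 95th percentile floor without Mbp between 6.08 and 6.39. Hbegf was called only with no floor or the median floor, and was also above the floor, in HC+IL6, without Mbp. Of 307 single log2 ratios under the alternatives, 283 moved by less than the SD between probe sets, 24 moved by more and 0 called ratios changed sign. Among all genes, higher genes made up 76.4% of calls in HC+IL6 against NC and 65.1% after quantile normalization. The 2 hypoxia ratios, without and with IL6, are given side by side and were not tested as pairs. Without replicates, the precision of every ratio is unknown.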
